A study of Mus musculus with 18 samples.

Results

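Histone peaks at 10 imprinted genes of the mouse were examined in 9 windows of build NCBIM37. Peaks were taken when any part of them lay in a window, which gave 157 peaks of the 225177 in all 8 lists. The windows, in Mb, ran on chromosome 7 from 149.74 to 149.87 for H19 and Igf2, from 150.38 to 150.50 for Kcnq1ot1, from 67.11 to 67.17 for Snrpn and from 6.64 to 6.70 for Peg3. They ran on chromosome 17 from 12.86 to 12.97 for Igf2r, on chromosome 6 from 30.67 to 30.71 for Mest, on chromosome 10 from 12.78 to 12.86 for Plagl1, on chromosome 11 from 11.82 to 11.95 for Grb10 and on chromosome 2 from 174.10 to 174.18 for Gnas. Together they span 810 kb. The loci had been picked as carrying both H3K4me3 and H3K9me3. Peaks of both marks were listed somewhere in 2 windows in Cre and in 4 in GFP cells, but they overlapped in the Igf2r window only, and the windows are therefore called imprinted loci here.

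The cells were mouse embryonic fibroblasts of a mixed B6;129 background that carry a conditional allele of Rb, the retinoblastoma tumour suppressor. Cre cells were infected with an adenovirus that delivers Cre recombinase, which deletes the allele, and GFP cells with a control adenovirus coding for green fluorescent protein, which leaves it in place. Both were labelled as without 4F and were grown for at most 3 passages before chromatin immunoprecipitation and sequencing. There was 1 library per condition for each of H3K4me3, H3K9me3, pan-acetylated H3 (H3Ac) and H3K27me3, so that differences between the conditions could not be set against a spread of replicates, and none was tested. All of these libraries were titled biological replicate 3, as was the Cre histone input. The GFP histone input was titled biological replicate 1. The share of Cre cells that had lost Rb, the sex of the embryos and the fibroblast markers were not checked here.

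Imprinted genes are expressed from the copy of 1 parent. At most of these loci a CpG-rich control region is methylated in the egg or the sperm and keeps that methylation in the embryo. The unmethylated copy of such a region usually carries H3K4me3 and acetylation, and the methylated copy H3K9me3, which is laid down after the zinc finger protein ZFP57 binds the methylated letters TGCCGC and brings in KAP1 and the methyltransferase SETDB1. Both marks are therefore known to be found at the same position in bulk cells. A peak list cannot tell the 2 parental copies, or different cells, apart.

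RefSeq promoters, taken from 250 bases before to 50 after a gene's start in build GRCm38.p6, are printed for 6 of the genes and for Airn, a noncoding RNA that starts inside Igf2r. They are shown because starts of imprinted genes are often known to lie in or beside a control region. The CpG-richest entry of each gene was taken, which need not be the one at its control region. Grb10, for example, has another entry, from 12027922, with 9 CpGs, which is not printed. Capitals mark every CpG, the dinucleotide that carries the methylation. The peaks are on another build, so that these sequences were not placed within them.
Airn, chr17:12741061-12741360, plus strand: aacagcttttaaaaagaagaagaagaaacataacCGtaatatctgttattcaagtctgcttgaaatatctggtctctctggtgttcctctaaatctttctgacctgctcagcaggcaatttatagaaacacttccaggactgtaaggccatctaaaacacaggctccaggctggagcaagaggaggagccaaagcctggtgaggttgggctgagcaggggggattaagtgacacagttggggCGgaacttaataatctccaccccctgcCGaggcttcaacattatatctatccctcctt
Kcnq1ot1, chr7:143296498-143296797, minus strand: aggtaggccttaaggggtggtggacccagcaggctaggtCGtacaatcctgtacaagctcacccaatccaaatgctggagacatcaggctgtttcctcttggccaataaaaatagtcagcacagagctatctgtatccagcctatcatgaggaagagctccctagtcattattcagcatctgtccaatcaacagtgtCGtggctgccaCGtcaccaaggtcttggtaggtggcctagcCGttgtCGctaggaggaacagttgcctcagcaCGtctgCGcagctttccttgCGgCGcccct
Snrpn, chr7:60005150-60005449, minus strand: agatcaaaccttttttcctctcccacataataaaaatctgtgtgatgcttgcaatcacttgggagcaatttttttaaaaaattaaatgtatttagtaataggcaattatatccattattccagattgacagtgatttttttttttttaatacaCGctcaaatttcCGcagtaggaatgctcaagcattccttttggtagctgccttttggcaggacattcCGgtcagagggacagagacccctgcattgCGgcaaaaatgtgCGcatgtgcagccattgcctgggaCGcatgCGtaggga
Peg3, chr7:6730370-6730669, minus strand: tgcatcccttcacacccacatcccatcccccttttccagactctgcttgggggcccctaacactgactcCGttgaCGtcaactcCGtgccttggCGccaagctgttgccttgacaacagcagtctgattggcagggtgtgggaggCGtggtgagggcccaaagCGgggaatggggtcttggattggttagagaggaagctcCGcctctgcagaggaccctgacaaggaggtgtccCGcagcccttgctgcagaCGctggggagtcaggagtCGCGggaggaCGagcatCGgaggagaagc
Mest, chr6:30737800-30738099, plus strand: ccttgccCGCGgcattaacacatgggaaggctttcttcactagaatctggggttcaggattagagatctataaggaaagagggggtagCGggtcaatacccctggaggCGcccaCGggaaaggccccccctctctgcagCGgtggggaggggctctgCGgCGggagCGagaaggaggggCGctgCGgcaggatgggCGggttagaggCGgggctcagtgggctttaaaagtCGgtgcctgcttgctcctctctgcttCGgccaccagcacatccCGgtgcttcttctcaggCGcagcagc
Plagl1, chr10:13090582-13090881, plus strand: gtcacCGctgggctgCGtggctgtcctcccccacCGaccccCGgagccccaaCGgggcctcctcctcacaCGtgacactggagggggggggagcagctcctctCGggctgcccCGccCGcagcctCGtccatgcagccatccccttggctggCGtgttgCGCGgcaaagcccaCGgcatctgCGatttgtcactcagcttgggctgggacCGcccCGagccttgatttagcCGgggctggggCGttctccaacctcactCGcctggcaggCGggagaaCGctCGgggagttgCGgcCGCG
Grb10, chr11:12037371-12037670, minus strand: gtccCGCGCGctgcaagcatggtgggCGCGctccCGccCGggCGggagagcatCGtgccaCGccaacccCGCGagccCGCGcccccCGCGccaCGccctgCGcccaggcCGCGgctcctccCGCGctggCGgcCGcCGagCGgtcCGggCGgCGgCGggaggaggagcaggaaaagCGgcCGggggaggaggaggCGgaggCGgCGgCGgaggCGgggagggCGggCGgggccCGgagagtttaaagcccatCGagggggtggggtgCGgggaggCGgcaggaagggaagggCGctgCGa
The sequence of Grb10 held 45 CpGs, that of Plagl1 26, Mest 17, Peg3 13, Kcnq1ot1 9, Snrpn 7 and Airn 3, against a median of 7 over all 32851 promoters of the table. These entries were picked as the CpG-richest of their genes and those of the table were not, so that the numbers are not alike. Without that choice the median was 14, over the 21 promoters listed for 9 of the 10 genes. TGCCGC, searched on both strands, was found in Mest from positions 9 and 184, in Plagl1 from 161, in Snrpn from 249 and in Grb10 from 275, counted from 1 at the 5′ end as printed. It was not among the letters of the Airn, Kcnq1ot1 and Peg3 windows. Of the 21 promoters listed for 9 of the 10 genes, 6 held the motif (28.6%), against 11.6% of all promoters. Promoters of 1 gene overlap or share control, so that these 21 are not independent. The Mest entries that start at 30737800 and at 30737803 hold the same matches and were both counted. TGCCGC itself holds a CpG, and whether its share is more than the number of CpGs gives was not tested.

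H3K4me3 and H3K9me3 peaks overlapped each other at 1 of the 9 loci, Igf2r, in Cre as well as in GFP cells. Igf2r encodes the receptor that clears the growth factor Igf2 from the cell surface and is expressed mainly from the maternal copy. The doubly marked H3K4me3 peak of chromosome 17 spanned 12933380 to 12936630 in the Cre list, where it scored 3042, and 12933622 to 12936601 in the GFP list, where it scored 2067. Scores are the authors' own, have no stated unit, and rank peaks within a list only.

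The H3K9me3 part of this region was weak in both lists and lay at different positions. In the Cre list the H3K9me3 peak ran from 12933340 to 12934542 with a score of 102.4, and 1163 of its bases lay in the H3K4me3 peak, 35.8% of that peak. In the GFP list it ran from 12935320 to 12936053 with a score of 53.41, close to the lowest score of that list, 50, and its 734 bases took up 24.6% of the H3K4me3 peak. The H3K9me3 peaks of the 2 lists did not overlap and were 777 bases apart. The H3K4me3 peak overlapped H3Ac in each library.

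A further region of the Igf2r window had the 2 marks in different libraries. The Cre list held an H3K9me3 peak from 12872194 to 12873051, of score 50.26, without H3K4me3. The GFP list held an H3K4me3 peak from 12871893 to 12872734, of score 61.88, without H3K9me3. They shared 541 bases, and both scores were near the bottom of their lists.

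The share of doubly marked peaks at the imprinted loci had a wide interval that held the share of the whole list in each library. In the Cre library 1 of 26 H3K4me3 peaks in the windows overlapped H3K9me3 (3.85%, 95% interval 0.0973 to 19.6), where 2.45% of all Cre H3K4me3 peaks did. In the GFP library it was 1 of 21 (4.76%, 0.120 to 23.8), where 4.65% of all GFP peaks did. Intervals are exact binomial ones, cover counting error only and treat neighbouring peaks as independent. An overlap of at least 50% of the H3K4me3 peak left 0 doubly marked peaks in each library, and with a minimum score of 100 the Cre peak was kept and the GFP peak was not.

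H3K9me3 peaks were listed in 2 windows in Cre cells, Kcnq1ot1 and Igf2r, and in 4 in GFP cells, the same 2 with H19/Igf2 and Grb10. In all there were 3 Cre and 5 GFP peaks, covering 2.96 kb in the Cre and 5.40 kb in the GFP library. The Cre H3K9me3 list is the shorter one genome-wide, 3985 peaks against 10885 in the GFP list, and whether fewer listed peaks mean less of the mark was not tested. Covered length per Mb was 3.66 kb in the windows and 1.88 kb over the 19 autosomes in the Cre library, and 6.66 kb in the windows and 5.46 kb over the autosomes in the GFP library. The loci had been picked as carrying this mark, so that a higher value in the windows was favoured beforehand. Of the H3K9me3 peaks in the windows, 2 of 3 in Cre and 3 of 5 in GFP cells scored below 100.

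The H3K9me3 peak of the Kcnq1ot1 window was the 1 of this mark that had a counterpart. Kcnq1ot1 is a long noncoding RNA of the paternal copy that silences genes on both sides of it. The peak ran from 150436612 to 150437512 with a score of 74.22 in the Cre list and from 150436008 to 150437781 with a score of 178.5 in the GFP list. Its distance from the H3K4me3 peak of the window was 41.7 kb in the Cre and 40.4 kb in the GFP library. A second GFP peak, from 150413280 to 150414019, scored 51.

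The remaining GFP peaks had no Cre counterpart. In the H19/Igf2 window the GFP H3K9me3 peak ran from 149855987 to 149857347 with a score of 132.6, and in the Grb10 window from 11871017 to 11871805 with a score of 51.39. Neither overlapped a peak of another GFP list. H3K9me3 peaks without a counterpart were 2 of 3 in the Cre windows and 4 of 5 in the GFP windows, against 39.9% of the whole Cre list and 81.0% of the whole GFP list.

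No H3K9me3 peak was listed in the windows of Snrpn, Peg3, Mest, Plagl1 and Gnas in either library. The distance from the highest-scoring H3K4me3 peak of a window to the nearest H3K9me3 peak on the chromosome was 331 kb in the Cre and 332 kb in the GFP library for Peg3, a paternally expressed zinc finger gene. For Mest, a paternally expressed gene of a hydrolase-like protein, it was 217 kb in each library, and for Snrpn, a paternally expressed splicing factor gene, 100 kb in the Cre and 97.4 kb in the GFP library. Over the 9 windows the median distance was 217 kb in the Cre and 97.4 kb in the GFP library, against 383 kb over all Cre and 166 kb over all GFP H3K4me3 peaks. The windows entered with their top peak only and the lists with peaks of any score, so that these medians are not alike. The doubly marked Igf2r peak was not the top one of its window and did not enter. What is missing from a list may still be present below the authors' threshold.

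**Figure D1:**
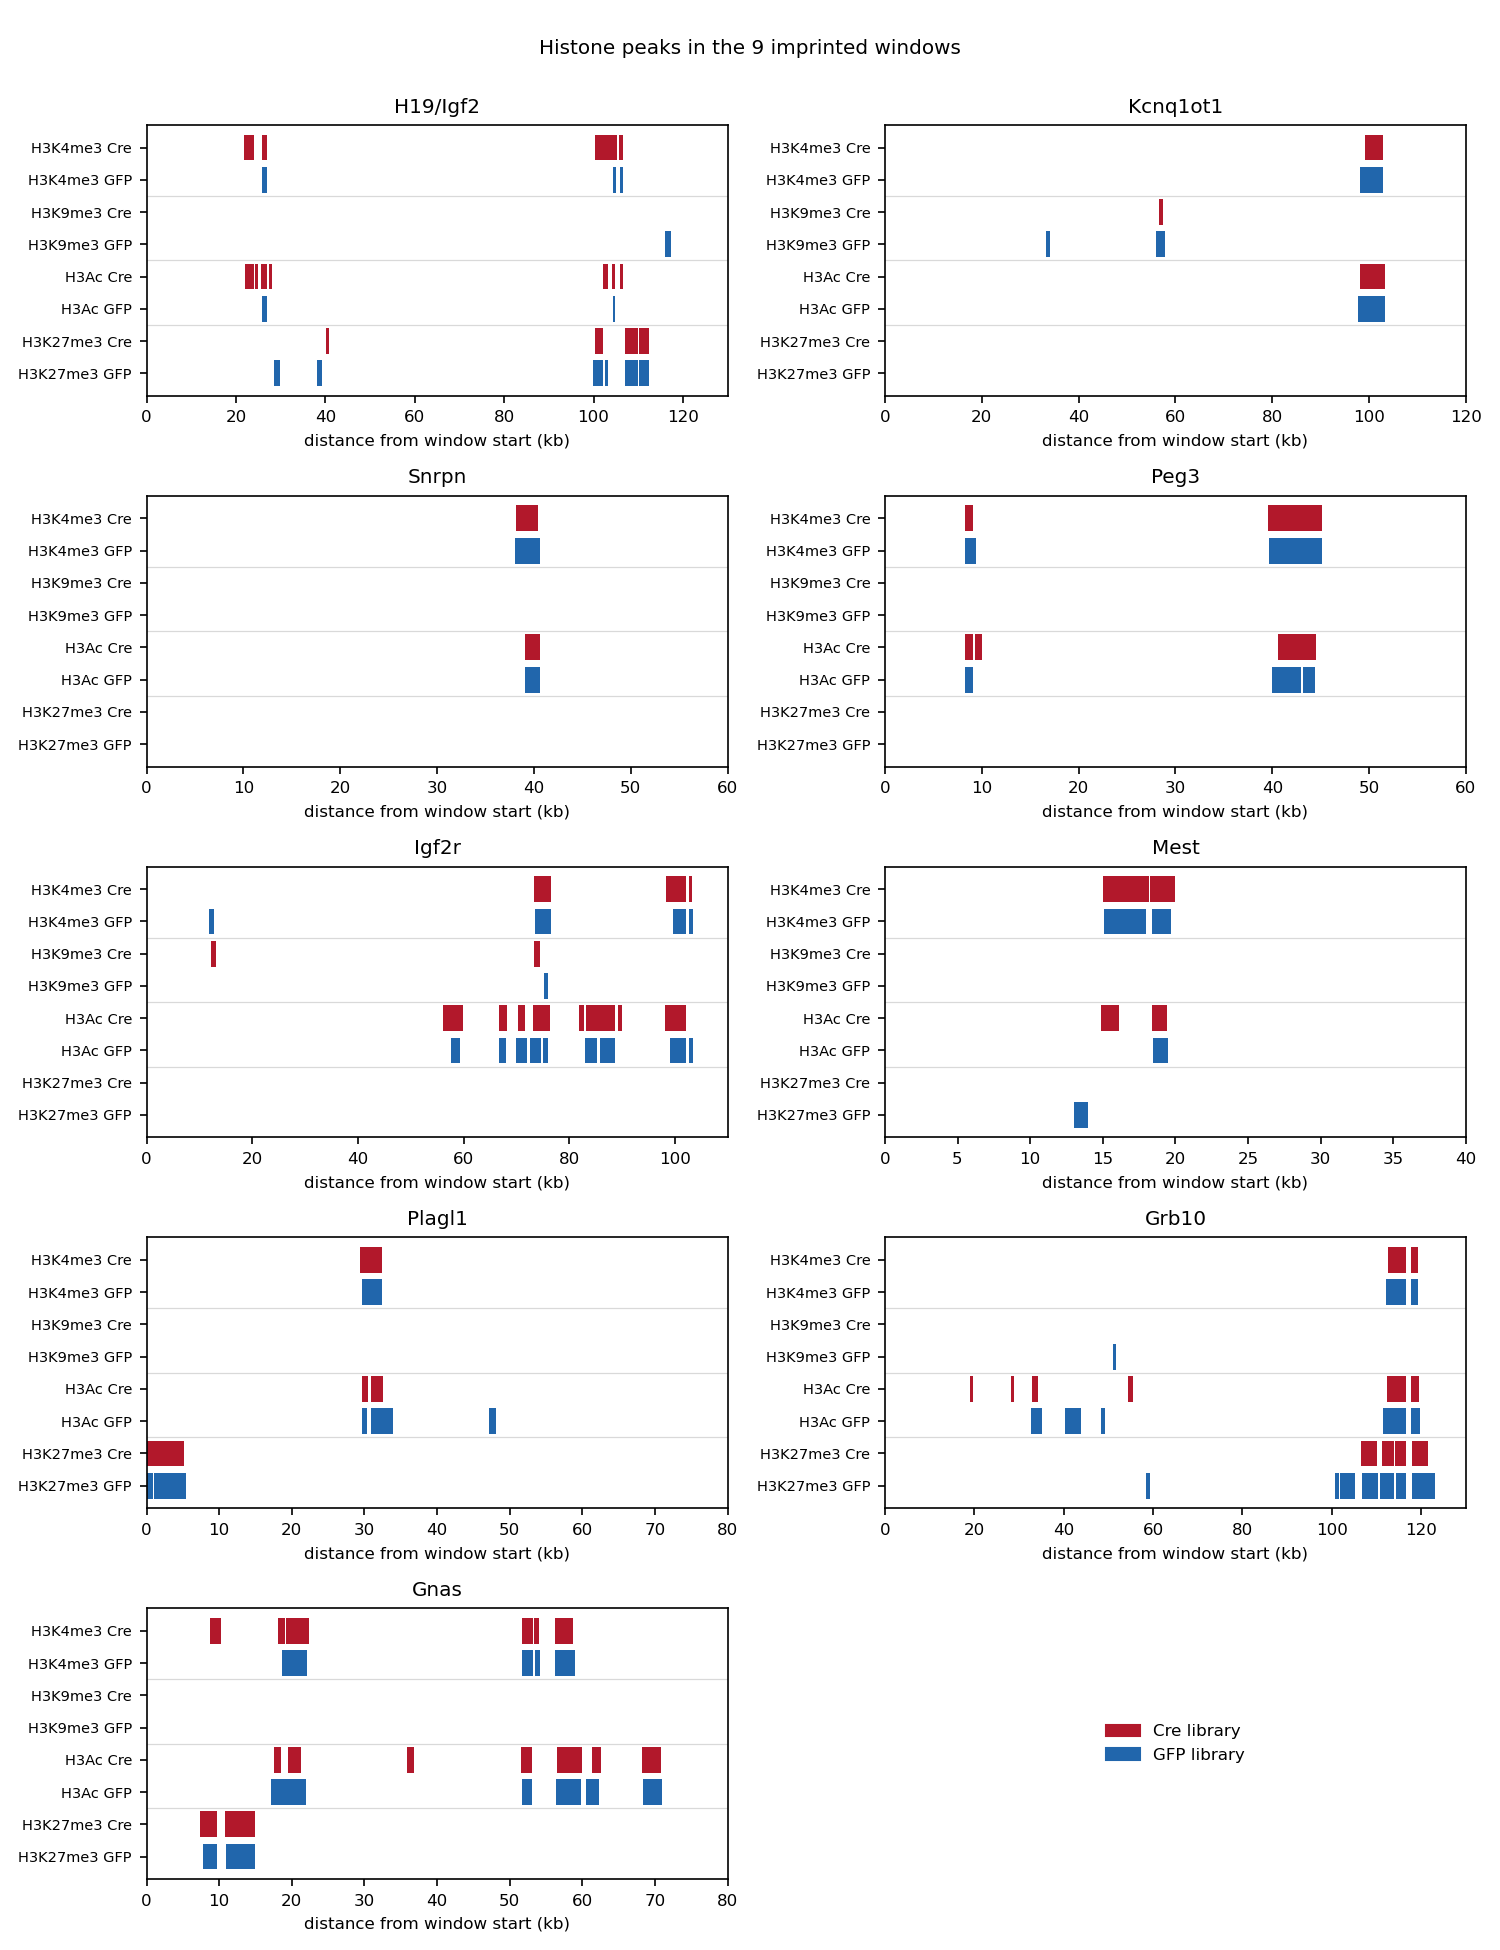
Peaks of 4 marks in the 9 windows, as distance from the window's start in kb, with the Cre library (red) above the GFP library (blue) in each pair of rows. H3K4me3 and H3Ac are present in all 9 windows in both libraries, and H3K9me3 meets H3K4me3 in the Igf2r window alone.

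H3K4me3, a mark of active promoters, was present at all 9 imprinted loci in both conditions. The highest-scoring peak of a window in 1 library overlapped that of the other in 7 of the 9 windows, and not at H19/Igf2 and Mest. The windows held 26 Cre and 21 GFP peaks of H3K4me3. They covered 65.4 kb per Mb in Cre and 54.9 kb per Mb in GFP cells, where the autosomes had 17.0 kb per Mb in Cre and 15.7 in GFP cells. With peaks merged within 1000 bases there were 17 H3K4me3 peaks in each library. The windows were drawn around genes, and windows around other genes were not compared. A score of 3100, a value shared by 25.4% of all Cre and 18.3% of all GFP H3K4me3 peaks, was reached by 6 Cre and 4 GFP peaks in the windows.

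At the noncoding RNA locus Kcnq1ot1 the score was 3100 in both lists, on a peak of 3704 bases in Cre and 4773 bases in GFP cells. That peak, from 150479252 to 150482955 in the Cre list and from 150478172 to 150482944 in the GFP list, was the only H3K4me3 peak of its window. In the Igf2r window, which also holds the antisense RNA Airn, the top H3K4me3 peak was a different one from the doubly marked one. It ran from 12958249 to 12962093 with a score of 3100 in the Cre list and from 12959728 to 12962165 with a score of 2481 in the GFP list, and carried no H3K9me3. A small peak just past it scored 55.85 in Cre and 102.2 in GFP cells. The printed promoter of Airn, from 12741061, lies at lower positions than that of Igf2r, from 12769657 on the same build. The doubly marked peak likewise lies at lower positions than the top peak. Neither peak was placed at a promoter, and the top peak is not to be read as that of Airn.

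The paternally expressed protein genes had their peaks in place too. The main H3K4me3 peak of the Peg3 window was the widest of all, 5488 bases with a score of 3100 in Cre and 5523 bases with a score of 2424 in GFP cells. A smaller peak of the same window scored 219.9 in Cre and 87.97 in GFP cells. In the Snrpn window the only peak scored 1701 in Cre and 1524 in GFP cells. The Plagl1 window, whose gene encodes a zinc finger transcription factor, had peaks of 1448 and 275.1 in Cre and of 977.6 and 149.1 in GFP cells. In the Mest window the neighbouring peaks scored 525.7 and 961.3 in Cre and 505.5 and 382.7 in GFP cells, so that the top peak was the second in Cre and the first in GFP cells. The lists' medians were 886.9 in Cre and 564.7 in GFP cells, so that the Cre list as a whole held the higher scores. As scores rank peaks within a list only, a higher score in 1 library is not to be read as more of the mark.

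Gnas, which encodes the stimulatory G protein alpha subunit and has several promoters with opposite imprinting, had 6 H3K4me3 peaks in Cre and 4 in GFP cells. A pair of peaks scored 3100 in each library. The first of the pair ran from 174119245 to 174122384 in the Cre and from 174118667 to 174122120 in the GFP list, and the second from 174156185 to 174158641 in the Cre and from 174156263 to 174159024 in the GFP list. Between them a peak of 733.2 in Cre and 1076 in GFP cells was followed by a weak one of 64.66 in Cre and 54.57 in GFP cells. A Cre peak from 174118066 to 174119068, with a score of 89.49, overlapped the first GFP peak, so that the extra Cre peaks are partly a different division of the same region.

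Of the H3K4me3 peaks in the windows, 5 of 26 in the Cre list and 1 of 21 in the GFP list had no counterpart. Over the whole lists these shares were 12.6% in Cre and 10.7% in GFP cells. The share in the windows was 19.2% in Cre and 4.76% in GFP cells. The Cre peaks were unevenly placed: 4 of the 5 lay in the H19/Igf2 window, and in the other 8 windows 1 of 19 Cre and 1 of 18 GFP peaks had none. Overlapping pairs numbered 21, and the Cre peak was the wider in 8 and the GFP peak in 13, with a median difference of -35.0 bases, Cre minus GFP. The pairs are not all of distinct peaks. The Gnas GFP peak from 174118667 was counted against the Cre peaks from 174118066 and from 174119245, and was the wider each time.

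**Figure D2:**
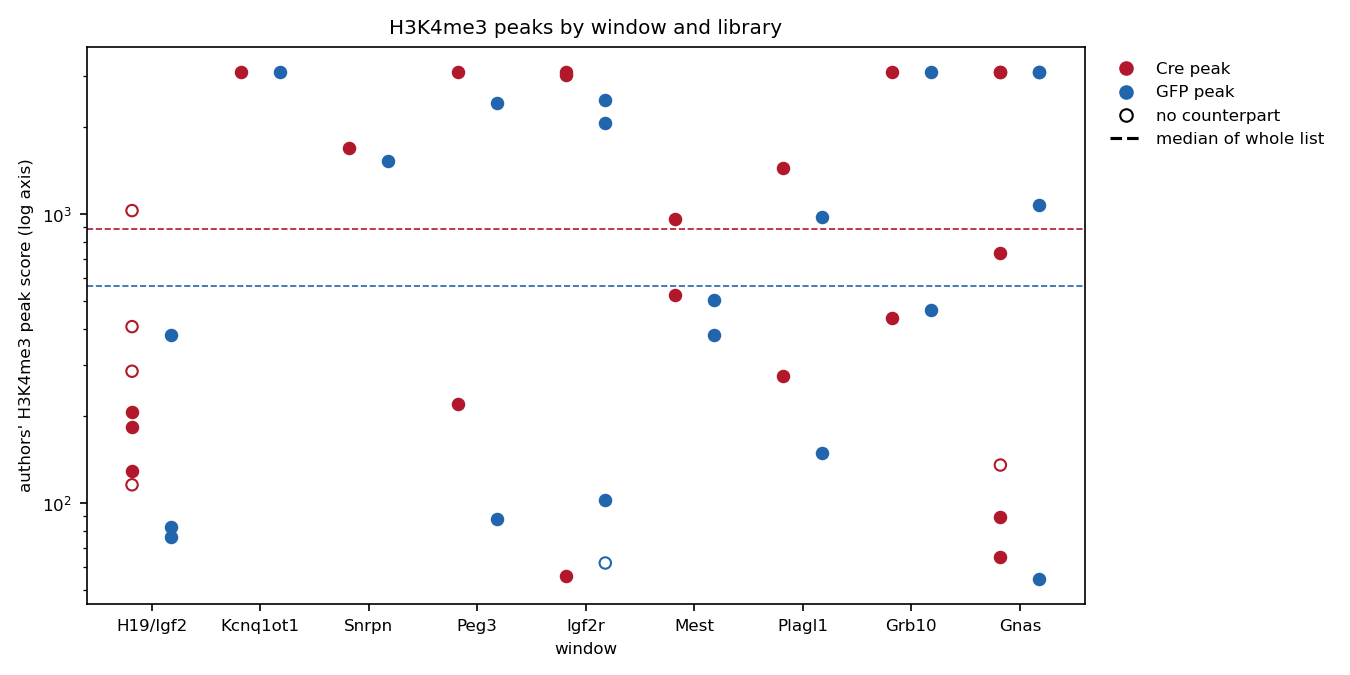
Authors' H3K4me3 scores (log axis) of the peaks in each window, Cre (red) left of GFP (blue); open circles have no counterpart in the other list, and dashed lines are the medians of the whole lists, 886.9 in Cre and 564.7 in GFP cells. Points at 3100 can lie on top of each other; 4 of the 6 open circles belong to the Cre library at H19/Igf2.

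Of the 9 windows, H19/Igf2 had the largest difference in H3K4me3 length between the libraries. H19 is a maternally expressed noncoding RNA and Igf2 a paternally expressed growth factor, and a control region between them, bound by the insulator protein CTCF on the maternal copy, keeps the 2 genes active on opposite copies. The Cre list held 7 H3K4me3 peaks covering 9.18 kb, and the GFP list 3 peaks covering 2.46 kb. For H3Ac there were 7 Cre peaks covering 6.91 kb and 2 GFP peaks covering 1.75 kb.

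The strongest Cre H3K4me3 peak of the window had no GFP counterpart. It ran from 149761728 to 149764016, spanned 2289 bases and scored 1029, and a Cre-only H3Ac peak of score 489.2 lay within it, from 149762122 to 149764008. The nearest GFP peak of any mark was 1770 bases away. The score was above 52.6% of the Cre H3K4me3 list, but above 99.3% of its Cre-only peaks: 20 of the 2859 Cre-only H3K4me3 peaks scored as high or higher, itself included, and 11 of the 411 that overlapped a Cre-only H3Ac peak. It was Cre-only also with a minimum score of 100, with peaks merged within 1000 bases and with the other settings tried.

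Next to it lay a region found in both libraries. Its H3K4me3 peak ran from 149765787 to 149766971 with a score of 183.6 in the Cre list, and from 149765800 to 149767037 with a score of 380.3 in the GFP list, where it was the highest of the window. H3Ac overlapped it with a score of 118.8 in Cre and 158.9 in GFP cells. Both marks were thus listed at this position in each library, whereas the neighbouring peak was in the Cre list alone.

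A second cluster of peaks lay farther along, between 149840272 and 149846630. The Cre list held 5 H3K4me3 peaks there, with scores of 285.7, 407.8, 115.5, 206.8 and 128.4 in order of position, and the GFP list 2, with scores of 82.27 and 76.35. The first 3 Cre peaks had no GFP counterpart, but they adjoin those that had one. With peaks merged within 1000 bases they became part of a region shared with GFP, and the number of Cre-only peaks in the window was 1 instead of 4. With a minimum score of 100 it was 6, because the weak GFP peaks dropped out.

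H3K27me3, the Polycomb mark, lay in and beside this second cluster in both libraries. The strongest peak ran from 149846963 to 149850035 with a score of 1722 in the Cre list, and from 149847003 to 149849909 with a score of 725.5 in the GFP list. It began 332 bases in Cre and 413 bases in GFP cells past the last H3K4me3 peak. A weaker H3K27me3 peak, of score 212.6 in Cre and 279.6 in GFP cells, lay at the other end of the cluster. In the Cre library it was overlapped by the Cre-only H3K4me3 peak of score 285.7, 83.6% of whose bases it took up, and in the GFP library no H3K4me3 peak overlapped it.

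**Figure D3:**
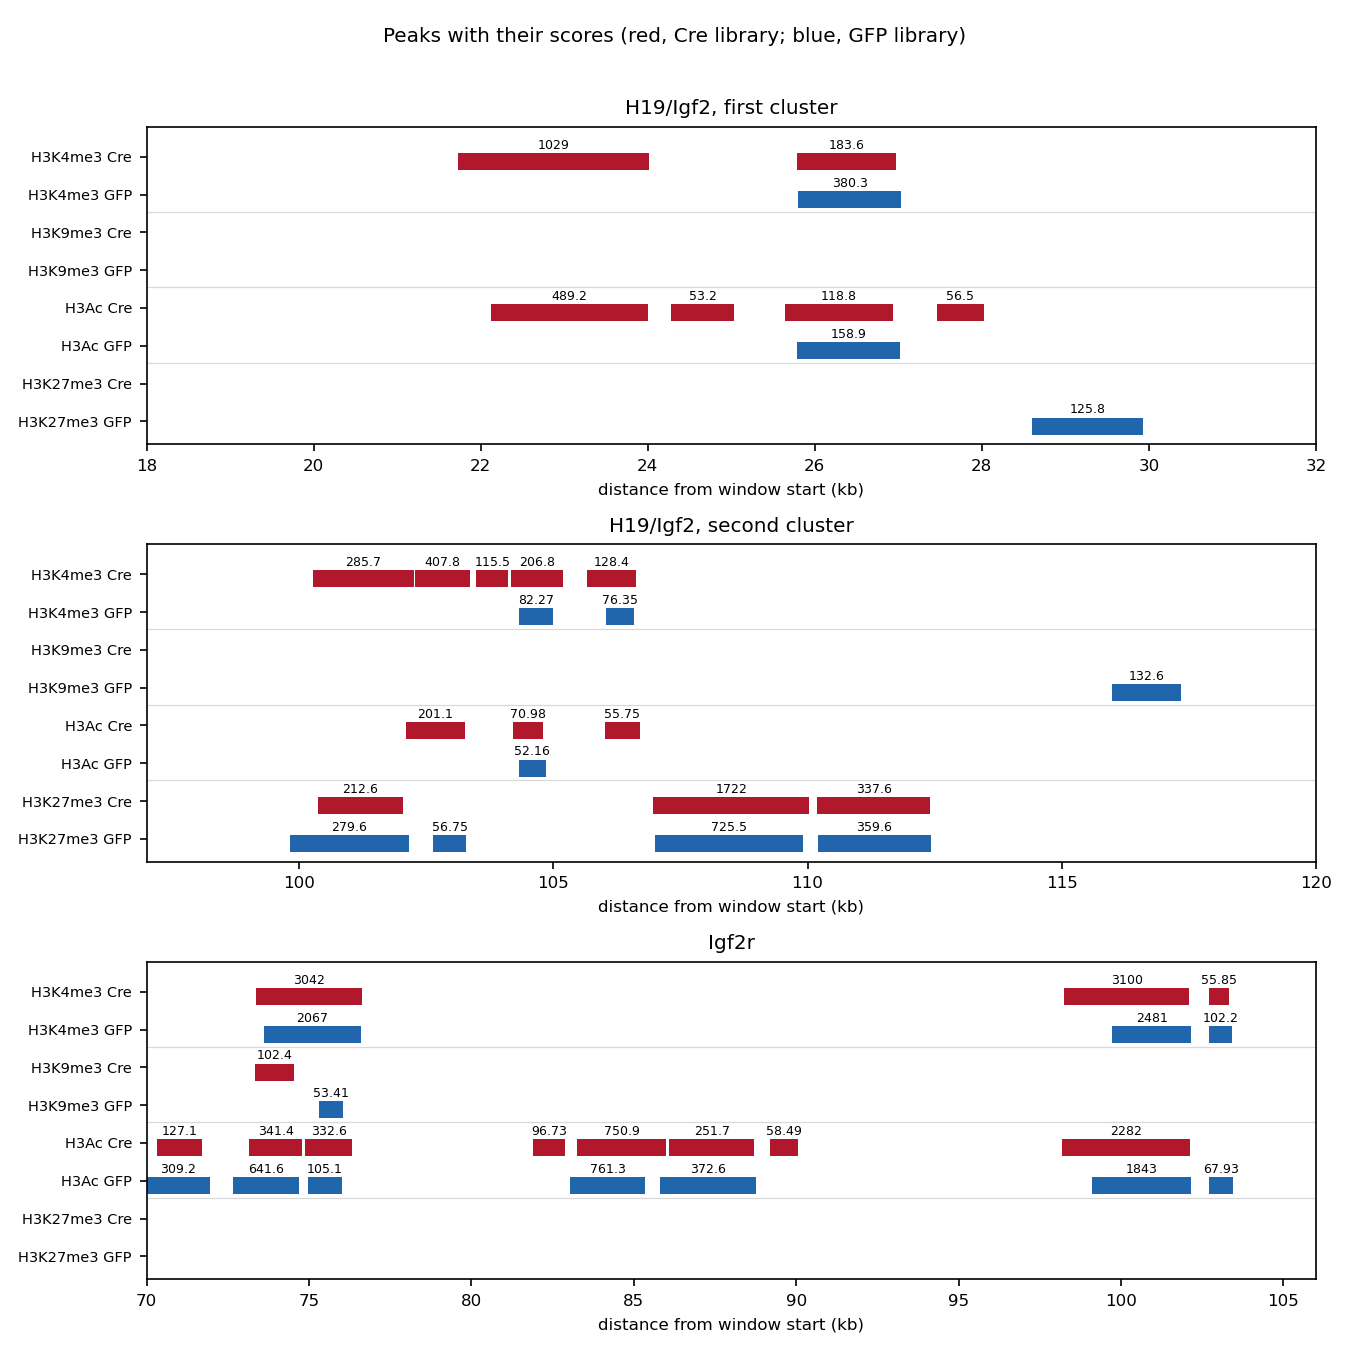
Peaks with their scores in 3 stretches, as distance from the window's start in kb: the first and the second cluster of the H19/Igf2 window and the main part of the Igf2r window, Cre (red) above GFP (blue) for each mark. The H3K4me3 peak of score 1029 stands in the Cre row alone. In the Igf2r window the H3K9me3 peaks of 102.4 in Cre and 53.41 in GFP cells lie at different positions along 1 H3K4me3 region.

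H3Ac was present in all 9 windows in both libraries, with 40 Cre and 32 GFP peaks. It overlapped 22 of the 26 Cre H3K4me3 peaks (84.6%, 65.1 to 95.6) and 17 of the 21 GFP peaks (81.0%, 58.1 to 94.6), where the whole lists had 85.0% in Cre and 80.1% in GFP cells, so that the shares were close to the background. Of the H3Ac peaks themselves, 17 of 40 in Cre and 11 of 32 in GFP cells lay outside H3K4me3. The same share over the whole H3Ac lists was not calculated, so that these counts cannot be called high or low. The top H3Ac score was 3100 at Gnas in both libraries. At Kcnq1ot1 it was 1365 in Cre and 2331 in GFP cells, and at Grb10 2648 in Cre and 3100 in GFP cells. Lower top scores were found at Peg3, 590.4 in Cre and 619.9 in GFP cells, at Plagl1, 411.5 in Cre and 680.3 in GFP cells, at Snrpn, 338.3 in Cre and 301.2 in GFP cells, and at Mest, 171.1 in Cre and 145.1 in GFP cells. At Igf2r the top score was 2282 in Cre and 1843 in GFP cells. The top peaks of the Mest window differed: the Cre one had no counterpart, and the shared peak scored 132.1 in Cre and 145.1 in GFP cells.

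The Igf2r window had the largest covered length of H3Ac, 20.9 kb in 10 Cre peaks and 17.3 kb in 9 GFP peaks. Of these, 7 Cre and 5 GFP peaks lay outside H3K4me3, again without a share of the whole lists to set beside them. The strongest of them ran from 12943258 to 12945994 with a score of 750.9 in the Cre list and from 12943041 to 12945353 with a score of 761.3 in the GFP list.

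H3Ac peaks without a counterpart were 13 of 40 in the Cre windows and 4 of 32 in the GFP windows. The shares were 32.5% in Cre and 12.5% in GFP cells, and those of the whole lists 15.4% in Cre and 26.6% in GFP cells. Outside the H19/Igf2 window they were 8 of 33 in Cre and 4 of 30 in GFP cells. Most of the Cre-only ones were weak, with a median score of 58.49, and with a minimum score of 100 the share of Cre H3Ac peaks with a counterpart was 81.5% in place of 67.5%. The highest-scoring GFP-only H3Ac peak was in the Grb10 window, from 11860193 to 11863971, with a score of 512.4 and a width of 3779 bases, and overlapped no other GFP mark.

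H3K27me3 was listed in 4 windows in both libraries, H19/Igf2, Plagl1, Grb10 and Gnas, and in the Mest window in GFP cells only, with a score of 80.9. There were 11 Cre and 19 GFP peaks, covering 31.6 kb in the Cre and 42.1 kb in the GFP library, a Cre to GFP ratio of 0.752 where the autosomes had 0.924. With peaks merged within 1000 bases the numbers were 9 in Cre and 12 in GFP cells. The highest score was 1972 at Plagl1 in the Cre list and 878.4 at Grb10 in the GFP list. At Gnas the top peak scored 939.8 in Cre and 500.7 in GFP cells and overlapped no H3K4me3. No H3K27me3 peak was listed in the windows of Kcnq1ot1, Snrpn, Peg3 and Igf2r.

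Grb10 had the most H3K27me3, 12.4 kb in 4 Cre peaks and 19.6 kb in 7 GFP peaks. Grb10 encodes an adaptor protein that restrains insulin and growth factor signalling, is expressed from the maternal copy in most tissues and from the paternal copy in neurons, and is known for promoters with both H3K4me3 and H3K27me3. Its main H3K4me3 peak, with a score of 3100 in both libraries, ran from 11932535 to 11936670 in Cre and from 11932174 to 11936654 in GFP cells. A pair of H3K27me3 peaks overlapped it, with scores of 306.6 and 584.7 in Cre and of 567.6 and 317.6 in GFP cells. The neighbouring H3K4me3 peak, of score 437.9 in Cre and 466.8 in GFP cells, overlapped another H3K27me3 peak, of score 792.6 in Cre and 878.4 in GFP cells.

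Within the windows 4 of 26 Cre H3K4me3 peaks (15.4%, 4.36 to 34.9) and 2 of 21 GFP peaks (9.52%, 1.17 to 30.4) overlapped H3K27me3, against 13.1% of the Cre and 12.3% of the GFP list. The pair at Grb10 made up the whole GFP number. The other Cre peaks were the one in the second cluster of the H19/Igf2 window and a Cre-only H3K4me3 peak of the Gnas window. The latter ran from 174108775 to 174110305, with a score of 135.2.

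H3K27me3 peaks without a counterpart were 1 of 11 in the Cre windows and 7 of 19 in the GFP windows, against 33.6% of the whole Cre and 30.5% of the whole GFP list. The highest of them lay in the Grb10 window in GFP cells, from 11921730 to 11925283, with a score of 446.6. The only Cre one, in the H19/Igf2 window, scored 60.83. In the Plagl1 window the Cre H3K27me3 peak and the weaker of the 2 GFP peaks crossed the window's left edge. The last H3K27me3 peak ended 24237 bases in Cre and 24275 bases in GFP cells before the first H3K4me3 peak.

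**Figure D4:**
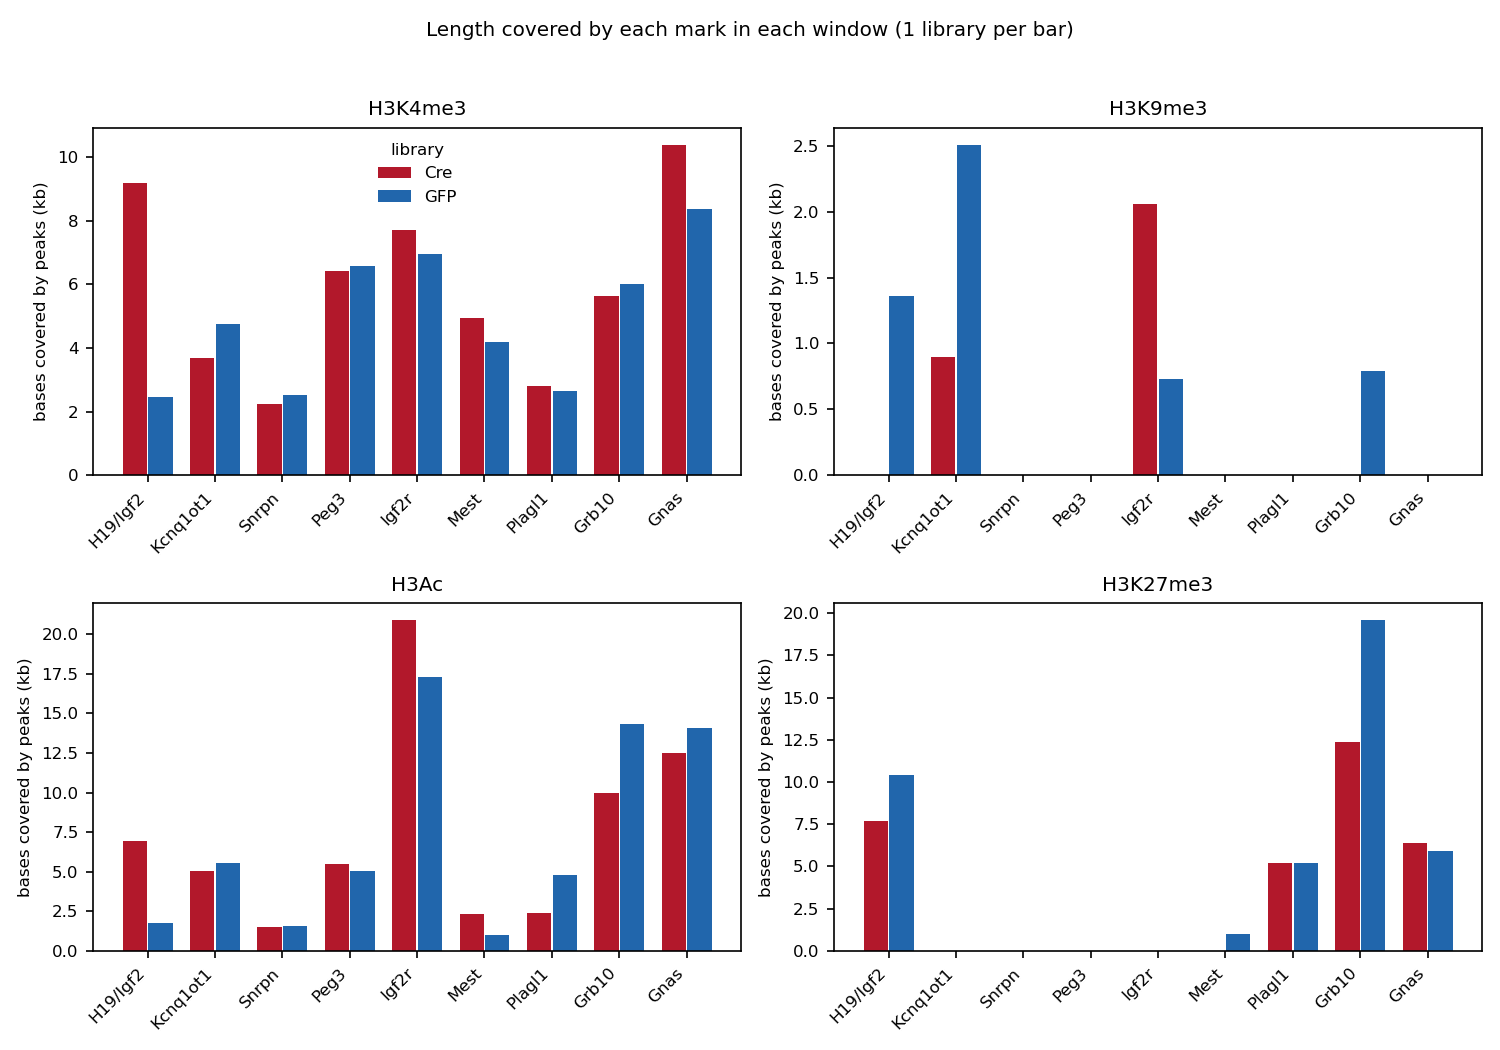
Length in kb covered by peaks of each mark in each window, Cre (red) left of GFP (blue), 1 library per bar and no error bar; a missing bar means that no peak was listed. The H3K4me3 bar of H19/Igf2 is 9.18 kb for Cre and 2.46 kb for GFP, and the H3K27me3 bar of Grb10 is 12.4 kb for Cre and 19.6 kb for GFP.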

How the data were processed

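The series holds 18 samples, and the 8 histone peak lists were used. The remaining 10, which are RNA, input and Rb libraries, were not used here. Groups came from the sample titles. Per the submitters' processing notes, the build was NCBIM37 and the tools included MACS 1.4.1, which calls peaks, with bedtools 2.16.2, SAMtools 0.1.18 and BWA. Which input was the control, and the treatment of duplicates, are not given in the sources used here. The authors deposited 1 list per library, with a score per peak that has no header. Depth is unknown.

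Peaks that shared at least 1 base were taken as overlapping. A peak without an overlapping peak of the same mark in the other library has no counterpart. Starts were raised by 1, as in a genome browser. Autosome lengths were taken from the last peak end. The text gives all 10 genes and, per window, the doubly marked, the highest-scoring and the highest one-library peaks, with a few neighbours chosen after their values were seen. Members, windows and comparisons were chosen with earlier results of these data known. Other imprinted genes were not analysed here, as the gene tables used here are on another build. Alternatives were a minimum score of 100, an overlap of 50%, merging within 1000 bases, equal numbers of top-scoring peaks, windows widened by 10 kb and peaks wholly inside. Simulated data were used to test the overlap step. Python 3.11.15, NumPy 2.4.6, pandas 2.3.3, SciPy 1.17.1 and matplotlib 3.10.9 were used.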

Additional observations from a re-analysis of the deposited data

How the results depend on the processing

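No paired analysis was possible because each mark has 1 library per condition and no test was run. Of 162 values recomputed under 6 alternatives, 131 stayed within 1.5 times (counts and lengths) or within their 95% interval (shares). Widening the windows by 10 kb and taking only peaks wholly inside moved 0 of 52. With a minimum score of 100, windows with H3K9me3 were 1 in Cre and 2 in GFP cells, H3K9me3 peaks 1 in Cre and 2 in GFP cells, their length 1.20 kb for Cre and 3.13 kb for GFP, and their share with a counterpart 0 in both; GFP cells had 0 doubly marked peaks in 0 windows. The doubly marked share of all H3K4me3 peaks was then 1.47% in Cre and 2.36% in GFP cells, and peaks with a counterpart were 81.5% for Cre H3Ac, and 100% in Cre and 84.6% in GFP cells for H3K27me3. With equal numbers of top-scoring peaks, which shorten the GFP H3K9me3 list, GFP cells had H3K9me3 in 2 windows, 2 peaks and 3.13 kb, 0 doubly marked peaks in 0 windows and a doubly marked share of 3.04%. With an overlap of 50%, doubly marked peaks and windows were 0 in Cre and 0 in GFP cells, and the shares of all H3K4me3 peaks 2.08% in Cre and 4.15% in GFP cells. Merging gave shares of 2.75% in Cre and 5.46% in GFP cells. It left 17 H3K4me3 peaks in Cre and 17 in GFP cells, in place of 26 in Cre and 21 in GFP cells. H3K27me3 peaks were then 9 in Cre and 12 in GFP cells, in place of 11 in Cre and 19 in GFP cells. The number of reads limits what a missing peak can show.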
